A study of Homo sapiens and Homo sapiens
Mus musculus and Mus musculus with 200 samples.

Results

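The comparison set human cranial neural crest cells (hCNCC) of the PRRX1FV line against unedited WT cells, by H3K27ac ChIP-seq before any degrader exposure. It used 4 of the 200 samples of the series, chosen by their labels: both 0 h libraries of PRRX1FV and both 0 h libraries of WT. All cells were differentiated in culture from H9, an established human embryonic stem cell line. In PRRX1FV, the PRRX1 gene carries a tag that lets the compound dTAGV-1 degrade the protein. Replicate 1 of PRRX1FV came from clone c10 and replicate 2 from clone c14, and WT has no clone label. The labels give dTAGV-1 (500 nM) with a time of 0 h for all 4 libraries, and the protocol names DMSO or dTAGV-1, so the baseline had no time with the degrader. The WT libraries contain spike-in chromatin of the mouse cranial neural crest line O9-1 and the PRRX1FV libraries contain none. The tag, the clones, the culture and the spike-in therefore differ together between the groups and cannot be told apart. Other libraries served as context, namely those of both lines at 3 h and 24 h and H3K27ac libraries of 4 other tagged lines. These are TWIST1FV, ALX1FV, ALX1FV ALX4- and MSX1FNV, named after the tagged gene. The label ALX4- marks a change at ALX4, and MSX1FNV carries the tag label FNV in place of FV. Peaks of TWIST1, AP2a and V5 were used for overlaps.

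PRRX1 is a homeodomain transcription factor of the facial and limb mesenchyme. In cranial neural crest cells, homeodomain factors of the ALX, MSX and PRRX families occupy regulatory elements together with TWIST1, a basic helix-loop-helix factor that binds E-boxes, often where an E-box and a homeodomain motif stand a few bases apart. H3K27ac is a histone mark of active enhancers and promoters, so its level at an accessible region is read as a measure of that region's activity.

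Sequences of 4 elements are given as examples. Each was chosen on its measured values among called peaks, so they do not stand for all regions that differed. Each is 201 bases around the centre of a called peak, on the plus strand of hg38, and capitals mark E-boxes (CATATG or else CAGATG or else CAGCTG, on either strand) and homeodomain motifs (TAATTA or else TAATTG, on either strand). The first was lower in PRRX1FV and lies upstream of SPRY1, a feedback inhibitor of FGF signalling. The next, near RBMX2, came from lower intronic or intergenic TWIST1-bound peaks that hold an E-box and a homeodomain motif 4 bases apart. Among these it had the lowest false discovery rate (FDR), and it was chosen after its values were seen. Such a motif pair stood in 0.644% of lower and 0.526% of tested regions. The last 2 were higher in PRRX1FV, near ID3, an inhibitor of basic helix-loop-helix factors, and upstream of DLX1, a homeodomain factor of the jaw.
SPRY1 element, chr4:123304452-123304652: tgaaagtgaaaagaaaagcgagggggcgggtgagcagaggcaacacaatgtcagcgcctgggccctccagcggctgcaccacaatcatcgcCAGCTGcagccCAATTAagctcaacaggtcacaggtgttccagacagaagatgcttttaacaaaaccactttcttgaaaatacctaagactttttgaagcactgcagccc
RBMX2 element, chrX:130555425-130555625: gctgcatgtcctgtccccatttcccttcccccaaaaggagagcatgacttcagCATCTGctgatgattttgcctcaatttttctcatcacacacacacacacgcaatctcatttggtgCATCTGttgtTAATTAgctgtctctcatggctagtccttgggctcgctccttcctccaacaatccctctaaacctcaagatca
ID3 element, chr1:23556189-23556389: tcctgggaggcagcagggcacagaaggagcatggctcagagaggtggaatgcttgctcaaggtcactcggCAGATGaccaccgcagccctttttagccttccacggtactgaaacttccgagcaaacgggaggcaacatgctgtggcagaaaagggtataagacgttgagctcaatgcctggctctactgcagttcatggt
DLX1 element, chr2:172052771-172052971: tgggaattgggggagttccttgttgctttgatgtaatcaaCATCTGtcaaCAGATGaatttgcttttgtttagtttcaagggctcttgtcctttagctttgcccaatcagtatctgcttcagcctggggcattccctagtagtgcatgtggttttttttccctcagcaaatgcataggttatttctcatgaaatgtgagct
The SPRY1 element had 74 and 104 reads in the PRRX1FV libraries and 809 and 515 in WT, a log2 difference of -2.93 ± 0.17 (SE, n = 2 per line; edgeR quasi-likelihood test, FDR 3.6e-09). The RBMX2 element had 118 and 111 reads against 339 and 264 (-1.45 ± 0.17, FDR 1.02e-05). Both WT libraries lay above both PRRX1FV libraries at each of these elements, as they did at 27% of all tested regions. The ID3 element had 182 and 207 reads in PRRX1FV against 30 and 42 in WT (2.36 ± 0.25, FDR 4.11e-06), and the DLX1 element 400 and 462 against 158 and 158 (1.38 ± 0.15, FDR 5.9e-06). Here both PRRX1FV libraries lay above both WT libraries, as they did at 24.5% of all tested regions. The elements were chosen on their values among called peaks, so this separation adds no support.

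The libraries held 7452856 and 7711417 counts in PRRX1FV and 8651976 and 7080398 in WT over 213151 merged accessible regions. The log2 levels correlated at 0.921 between the PRRX1FV libraries, 0.916 between the WT libraries and 0.871 to 0.878 across lines. To check the cell type label, the mark was summed over peaks at start sites of marker genes. Peaks at the start sites of 21 neural crest specifier genes summed to 909 and 966 CPM (counts scaled to a common library total) in PRRX1FV and 1030 and 1070 in WT, with 0 of these genes at 0. Per gene this was 43.3 to 50.9 CPM. The 19 HOX genes with such a peak, which cranial crest of the front of the head lacks, summed to 4.54 to 5.78 CPM, with 5 to 7 of them at 0. Neuroectoderm markers summed to 38.9 and 56.2 CPM against 50.5 and 61.7 (3 to 5 of 19 genes at 0), epithelial markers to 25.2 to 29.8 and mesoderm, endoderm and endothelial markers to 21.6 to 25.7. The 11 pluripotency markers with such a peak summed to 399 and 415 against 366 and 368, with 0 of them at 0. Per gene this was 33.2 to 37.7 CPM. The markers were uneven. In PRRX1FV the strongest start-site peaks had 1016 and 1108 reads at LIN28A, 769 and 775 at LIN28B and 628 and 712 at SALL4. That of DNMT3B had 60 and 39, and POU5F1 and NANOG had no tested start-site peak. Glial and melanocyte markers summed to 71.8 and 59.9 against 51.9 and 54.4. Their part in the differences below was not tested.

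PRRX1FV and WT differed at 8083 of 108213 tested regions (7.47%) at an FDR of 0.05. H3K27ac was higher in PRRX1FV at 2800 regions (2.59%) and lower at 5283 (4.88%), with median log2 differences of 1.38 and -1.05. At 5014 of the called regions the change was at least 2-fold. The 2 lines did not overlap at 26484 regions (24.5%) with PRRX1FV above and at 29182 (27%) with PRRX1FV below. The balance of directions depended on scaling. TMM factors put the median of all regions at 0.019, and library size alone put it at 0.143. With library size alone 53.3% of calls were higher, against 34.6% with TMM factors. The number of calls depended on the libraries fitted, and most on WT replicate 1. Without it edgeR called 0 regions (17887 at an unadjusted p below 0.05), and DESeq2 called 994 from the same 3 libraries.

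**Figure D1:**
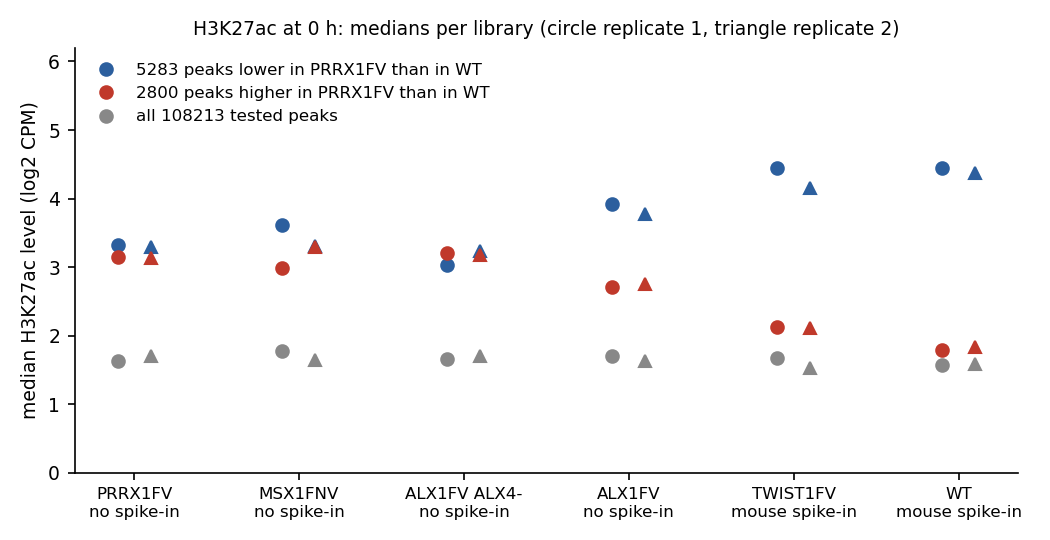
Median H3K27ac level (log2 CPM) of the regions called higher, of the regions called lower and of all tested regions in each of the 12 libraries at 0 h, by line. The lower regions sit at 3.29 and 3.32 in PRRX1FV and 4.38 and 4.45 in WT, and the higher regions at 3.14 and 3.15 against 1.79 and 1.84, values fixed in direction by how the regions were chosen. The other 4 lines were not used in choosing them.

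Of the 12 named peaks with the deepest falls, 4 were start-site peaks, those of TBX2, SHOX2, NBEA and NFIB. TBX2, a T-box repressor active in craniofacial mesenchyme, had 6 and 10 reads at its start-site peak (chr17:61398975-61400205) in PRRX1FV against 256 and 160 in WT. The level was 26.3-fold lower (log2 difference -4.72 ± 0.32, FDR 1.95e-08). SHOX2, a homeodomain factor of palate and limb, had 4 and 14 reads against 242 and 183 at its start-site peak (chr3:158105081-158106018), 24.1-fold lower (-4.59 ± 0.33, FDR 3.39e-08). The groups did not overlap at either promoter, as the choice of named peaks required. In MSX1FNV, another tagged line, 0 h reads were 6 and 10 at the TBX2 peak and 10 and 16 at the SHOX2 peak. The remaining tagged lines had 8 to 94 at TBX2 and 25 to 143 at SHOX2. Low counts at these promoters were thus shared with MSX1FNV. In an edgeR fit of the 12 libraries at 0 h, PRRX1FV was set against the mean of the 4 other tagged lines. The SHOX2 peak was called lower in PRRX1FV (-2.39 ± 0.45, FDR 0.0132) and the TBX2 peak was not called (-2.04 ± 0.57, FDR 0.197). A total of 5 of the 6 tested SHOX2 peaks were lower, including an exonic peak 2.25 kb into the gene with 4 and 13 reads against 134 and 139. NFIB, a factor of chondrocyte and lung development, had 4 and 8 reads against 73 and 53 at its start site (-3.41 ± 0.43, FDR 3.35e-05). The start site of NBEA, a neuronal trafficking protein, whose gene contains the developmental gene MAB21L1, had 4 and 10 reads against 74 and 86 (-3.56 ± 0.42, FDR 1.58e-05). An exonic peak of HPSE2, a heparanase family gene, had 8 and 10 reads against 190 and 192 (-4.45 ± 0.3, FDR 2.15e-08). Separation of the 4 libraries by line was a condition for naming these peaks, so it adds no support.

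Peaks away from start sites made up the other 8, and none of them fell as far as the TBX2 and SHOX2 start sites. A peak 62.6 kb upstream of ATRNL1 had 30 and 40 reads against 511 and 312 (-3.59 ± 0.21, FDR 3.6e-09). At 0 h TWIST1FV had 444 and 333 reads there, and ALX1FV, ALX1FV ALX4- and MSX1FNV had 16 to 100. The low level was thus shared with these tagged lines. An intronic peak of SMOC1, an extracellular matrix gene that modulates BMP signalling, is nearest the start of SLC8A3. It had 12 and 18 reads against 307 and 153 (-3.96 ± 0.31, FDR 7.76e-08). A peak in the 5' or 3' untranslated region of RUBCNL had 18 and 16 reads against 254 and 173 (-3.68 ± 0.26, FDR 3.39e-08). The remaining lower peaks of the 12 with the deepest falls lay near PHACTR1, CABCOCO1, SLF1 and SH3GLB1, with log2 differences of -3.81, -3.81, -3.59 and -3.29. Of these 12 peaks, 9 overlapped a TWIST1 peak, the exceptions being HPSE2, NBEA and NFIB.

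The lowest FDR of all belonged to a region with no gene nearby, named here after its values were seen. It lies in the pericentromeric part of chromosome 3 (chr3:93470331-93470831), has a GC content of 23.6% and held 324 and 419 reads in PRRX1FV against 3463 and 2731 in WT (-3.11 ± 0.1, FDR 1.01e-13). It held 3098 and 3248 reads in TWIST1FV, whose libraries also carry mouse chromatin, and 206 to 407 in the 3 lines without it. High counts therefore went with the libraries that carry spike-in. In the region 0 stretches of 50 bases matched the mouse genome exactly, but shorter or inexact matches were not searched. The part of the spike-in in this difference was not tested.

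Regions bound by TWIST1 in WT cells made up most of the losses. TWIST1 peaks found in both WT replicates overlapped 35.0% of tested regions, 83.7% of lower regions (95% Wilson interval 82.7 to 84.7, counting error only) and 32.6% of higher regions (30.9 to 34.4). Of the bound regions 11.7% were lower and 2.41% higher, with a median log2 difference of -0.19. The TWIST1 peaks were themselves called in WT cells, so they share the culture of one side of the comparison. The share was higher where the level of the mark was higher. With tested regions split by level into 5 equal classes, in the top class, 89.1% of lower, 60.3% of higher and 55.5% of uncalled regions were bound, and in the class below it 82.0%, 31.4% and 50.1%. Away from start sites, 12% of bound and 0.933% of unbound regions were lower. At start sites the values were 9.37% and 2.75%. Regions bound by both TWIST1 and the neural crest factor AP2a were lower in 15.9% of cases, and regions bound by TWIST1 without AP2a in 10.4%. Peaks of the V5 antibody against tagged PRRX1 in PRRX1FV overlapped 2 tested regions, of which 1 was lower, too few to describe binding.

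Many of these regions were also lower after dTAGV-1 in TWIST1FV, a line with the tag on TWIST1. Its libraries enter no part of the comparison of PRRX1FV with WT, but they carry spike-in like those of WT. At 0 h the regions lower in PRRX1FV had median log2 CPM of 4.45 and 4.16 in TWIST1FV. The other tagged lines had 3.03 to 3.92. The part of this higher starting level in the shares below was not tested. In TWIST1FV, H3K27ac 24 h after dTAGV-1 was lower at 10.7% of the regions tested here. That set included 44.9% of the regions lower in PRRX1FV and 10.3% of those higher. At 3 h the shares were 4.86%, 25.8% and 5.29%. Regions that rose in TWIST1FV at 24 h made up 4.31% of tested regions, 18.1% of the higher and 3.92% of the lower regions. Across all tested regions the TWIST1FV fit called 4.28% higher and 9.49% lower at 24 h (13.8% in all), and 1.01% higher and 4.28% lower at 3 h (5.29% in all).

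**Figure D2:**
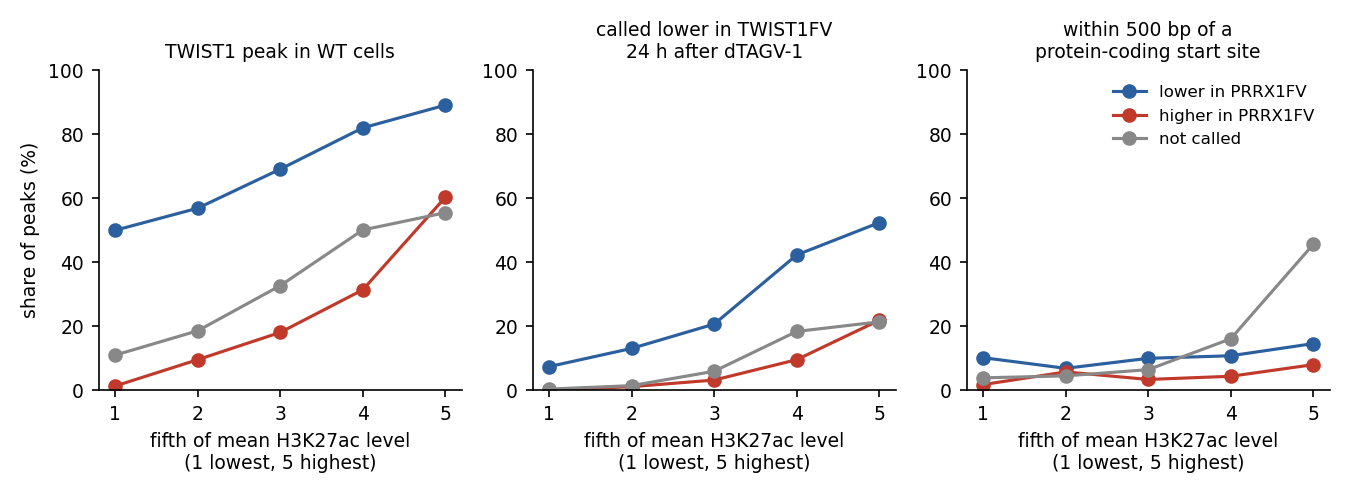
Share of regions (%) that hold a TWIST1 peak in WT cells, that were called lower in TWIST1FV 24 h after dTAGV-1, and that lie within 500 bp of a protein-coding start site, against 5 equal classes of mean H3K27ac level over the 4 libraries, from 1 (lowest) to 5 (highest). Lower regions lie above uncalled ones in every class for the first 2 features, with 89.1% against 55.5% bound in class 5.

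Higher and lower regions also differed in place and sequence. Start sites made up 14% of tested regions, 5.14% of higher and 12.9% of lower regions, and introns 38.8%, 43.1% and 36%. Motifs were searched on both strands of the central 201 bases of each region. The homeodomain motif stood in 12.9% of tested, 12.9% of higher and 17.2% of lower regions, and the E-box in 40.8%, 35.4% and 44.9%. The E-box and homeodomain motif 4 bases apart was rare, in 0.526% of tested regions. It stood in 6 higher (0.214%) and 34 lower regions (0.644%). The 95% Wilson interval of the lower share, 0.461 to 0.898%, covers the share of tested regions. The NR2F site AGGTCA, bound by orphan nuclear receptors of the neural crest, stood in 18.5% of tested, 23.5% of higher and 16.4% of lower regions. The LEF/TCF motif TCAAAG, a WNT effector site, stood in 13.9%, 17.9% and 13.9%, and the AP-1 motif TGANTCA in 7.17%, 8.64% and 5.34%. These matches describe the letters in the windows and show no binding.

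Many losses were grouped into blocks. Called regions of 1 direction less than 100 kb apart were joined into runs, which were chosen on the measured values and carry no test. Lower regions formed 181 runs of 5 or more (1278 regions) and 25 of 10 or more (307 regions). Higher regions formed 36 runs of 5 or more (216 regions) and 1 of 10 or more. The TBX2 run (chr17:61389851-61487571) spans 97.7 kb, with 13 of 18 tested regions lower and a median of -2.22 over those called. Summed over the called regions alone, counts were 641 and 676 in PRRX1FV against 2449 and 1579 in WT. The other tagged lines had 565 and 653 (MSX1FNV), 1183 and 683 (ALX1FV), 1122 and 1167 (ALX1FV ALX4-) and 1495 and 1488 (TWIST1FV). The run reaches TBX4, the neighbouring T-box gene. The IRX3 run (chr16:54143538-54475673), around a homeodomain gene, had 16 of 42 regions lower. Summed over those 16 regions, counts were 3086 and 3136 against 6426 and 5253. The deepest of them, an exonic peak 1299 bases from the IRX3 start, had 26 and 23 reads against 226 and 156. The order of these sums follows from summing only regions already called lower.

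The ALX4 run (chr11:44304242-44535477) had 16 of 55 regions lower, 12 of them nearest ALX4, a homeodomain regulator of the midface. Its called regions had a median of -0.84, and 12 of the 16 were TWIST1-bound. The start-site peak of ALX4 itself had 1504 and 1542 reads against 2268 and 1625 (-0.4 ± 0.09, FDR 0.00596), a call that library size alone did not make (FDR 0.0524). The TFAP2B run (chr6:50816041-50852849) had 11 of 17 regions lower and all 17 differences negative. The 11 called regions alone summed to 2167 and 2404 counts against 3636 and 2950. The run near IGFBP5 and IGFBP2, which bind insulin-like growth factors, had 16 of 34 regions lower. In the RUNX1T1 run, 14 of 32 regions were lower, all 14 were TWIST1-bound and 12 were also called lower in TWIST1FV 24 h after dTAGV-1.

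The single long run of gains covered DLX1 and DLX2, the linked homeodomain genes of the jaw (chr2:172051438-172103230, 51.8 kb). Of its 13 tested regions 11 were higher and all 13 differences were positive, with a median of 1.76 over those called. Summed over the 11 called regions, counts were 941 and 1176 in PRRX1FV against 302 and 336 in WT, an order fixed by their choice. There ALX1FV ALX4- had 3520 and 2887, MSX1FNV 563 and 1291, ALX1FV 976 and 384, and TWIST1FV 347 and 469. The start-site peak of DLX1 had 44 and 81 reads against 16 and 24 (1.56 ± 0.39, FDR 0.0143), and that of DLX2 28 and 82 against 22 and 10 (1.73 ± 0.46, FDR 0.0222). Clone c14 gave the higher count at both start sites. Only 1 of the 11 called regions was TWIST1-bound, the element printed above, which lies in an intron of the neighbouring gene.

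**Figure D3:**
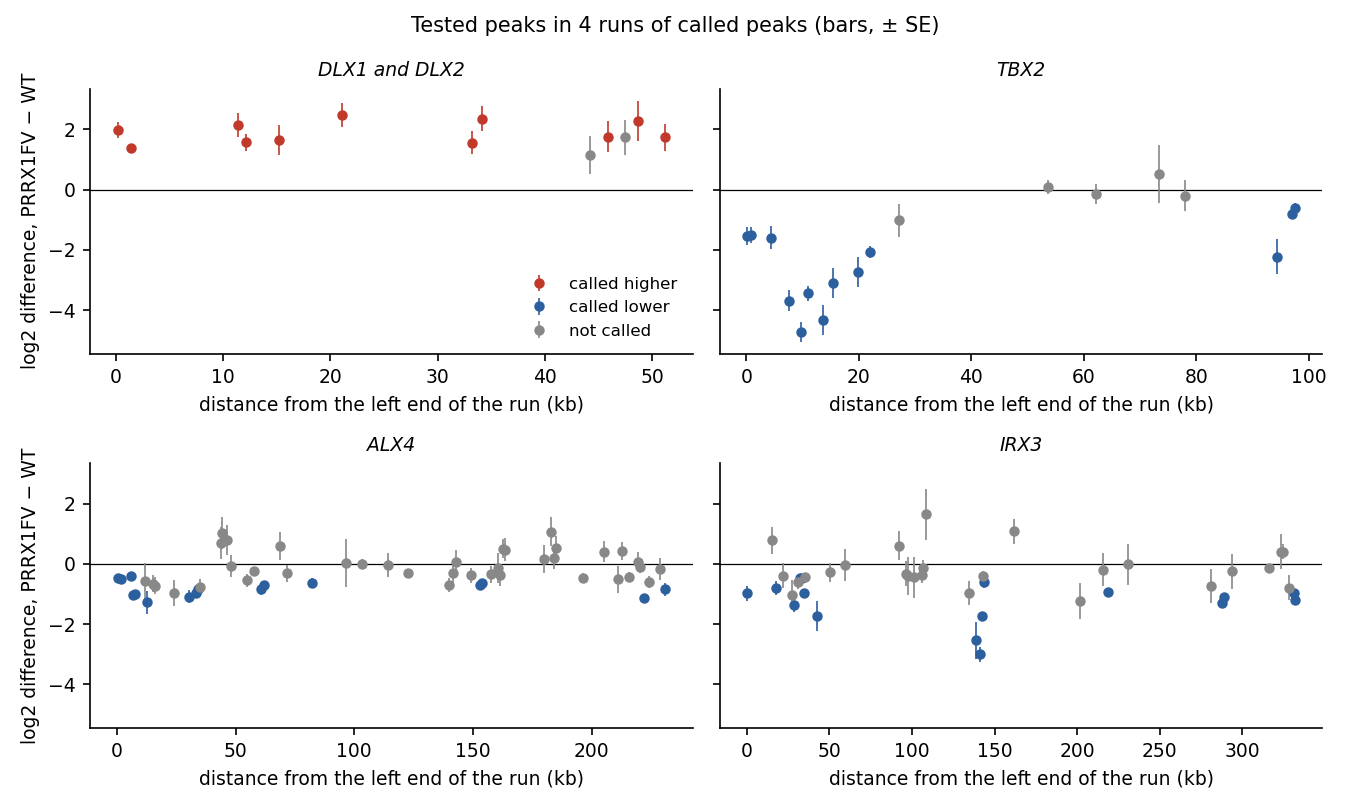
Log2 difference of H3K27ac (PRRX1FV minus WT, bars ± SE) of every tested region in 4 runs, against the distance in kb from the left end of the run. All 13 regions of DLX1 and DLX2 are above 0, 16 of 18 of TBX2 are below 0, and the ALX4 and IRX3 runs mix called and uncalled regions.

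The largest gains were distal. The 12 named peaks with the largest rises had log2 differences of 2.57 to 3.53, and 1 of them lay at a start site, that of UNC5C, a netrin receptor of migrating cells. It had 122 and 173 reads against 17 and 22 (2.85 ± 0.3, FDR 4.22e-06). A peak in an untranslated region of ATP1A4, a sodium pump subunit gene, had 86 and 134 reads against 6 and 12 (3.53 ± 0.39, FDR 7.47e-06). A peak 265.0 kb upstream of MARCKS, an actin-binding kinase substrate, had 90 and 128 against 6 and 12 (3.51 ± 0.39, FDR 6.14e-06). The groups were apart at all 3 peaks, which the choice of named peaks required. At the ATP1A4 peak, 0 h reads were 78 and 234 in MSX1FNV and 225 and 99 in ALX1FV ALX4-. ALX1FV had 28 and 46 there, and TWIST1FV 24 and 14. A pair of genes for enzymes that modify heparan sulfate, HS3ST4 and HS3ST2, had differences of 3.01 (94 and 92 reads against 10 and 12) and 2.67 (154 and 190 against 34 and 18). The other peaks lay near MTIF3, NOS1AP, HSPG2, KCNMA1, RNF144A, GRAMD2B and SLC1A3. Of the 12, those of HS3ST2 and GRAMD2B overlapped a TWIST1 peak.

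Gene lists were counted over regions whose nearest protein-coding start lay within 100 kb. Over all such regions 2.54% were higher and 4.56% lower. The lists are described by their counts alone, and nothing particular to a list is drawn from them. Regions of 22 neural crest specifiers numbered 407, with 18 higher (4.42%) and 46 lower (11.3%). TFAP2B, an early crest factor, had 11 of 19 regions lower and PAX3, a paired-box factor of the crest, 8 of 25. PAX3 also had 2 regions higher. The start-site peak of PAX3 had 117 and 131 reads against 412 and 314 (-1.6 ± 0.16, FDR 1.65e-06), with WT higher in both libraries. PAX7 had 7 of 26 regions lower, and its start-site peak missed the threshold (-0.73 ± 0.24, FDR 0.0657). NR2F1, an orphan nuclear receptor of the crest, had 8 of 26 regions higher. The largest rise, 7.71 kb downstream, had 112 and 122 reads against 32 and 33 (1.78 ± 0.27, FDR 0.000223), while its start-site peak gave 0.18 ± 0.13 (FDR 0.461). With library size alone this list had 32 higher and 32 lower regions.

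Facial homeodomain factors, 27 genes, had 216 regions with 21 higher (9.72%) and 25 lower (11.6%), and with library size alone 28 higher and 19 lower. The losses included SHOX2 (5 of 6) and ALX4 (12 of 43). The gains lay at DLX1 (8 of 9), DLX2 (3 of 7), PRRX2 (3 of 11) and PRRX1 (3 of 17), and MSX1 had 3 higher and 2 lower.

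Signalling lists held ligands, receptors, inhibitors and targets. Among 30 BMP and TGF-beta genes, 362 regions had 15 higher (4.14%) and 37 lower (10.2%). The ligand BMP7 had 11 of 30 lower and 1 higher, with 412 and 455 reads against 767 and 526 at its start site (-0.62 ± 0.12, FDR 0.00248). The receptor BMPR1B had 13 of 52 lower. The ID genes are direct targets of BMP signalling and encode inhibitors of basic helix-loop-helix factors. ID1 had 5 of 8 regions higher, with 625 and 730 reads at its start site against 135 and 280 (1.61 ± 0.23, FDR 0.000115). ID2 had 3 of 16 higher, including its start site (245 and 229 against 91 and 166, 0.8 ± 0.24, FDR 0.0438). WT replicate 1 was the lower of the WT libraries at both ID start sites, yet both PRRX1FV libraries exceeded both. The ID3 and ID4 start sites gave 0.1 ± 0.16 (FDR 0.812) and 0.22 ± 0.24 (FDR 0.671).

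Among 40 FGF and retinoic acid genes, 514 regions had 9 higher (1.75%) and 47 lower (9.14%), with 22 and 32 under library size alone. Feedback inhibitors and transcription factors that FGF signalling induces were lower at 5 of 20 regions of SPRY1, 4 of 34 of SPRY4, 5 of 24 of DUSP6 and 5 of 11 of ETV4. DUSP6 also had 1 region higher. Other genes of this kind had fewer calls, with 2 of 11 lower at SPRY2, 2 of 13 at ETV1, 1 of 11 at ETV5, 0 of 21 at SPRED1 and 0 of 28 at SPRED2. DUSP4 had 2 of 14 lower and 1 higher. At the SPRY1 start site, reads were 490 and 662 against 1103 and 949 (-0.89 ± 0.12, FDR 5.32e-05), and at that of DUSP6 868 and 856 against 1132 and 975 (-0.35 ± 0.1, FDR 0.0297). With library size alone the DUSP6 start site missed the threshold (FDR 0.183), and 4, 2, 3 and 2 regions of SPRY1, SPRY4, DUSP6 and ETV4 were lower. FGF2 itself had 101 and 103 reads against 261 and 156 (-1.07 ± 0.2, FDR 0.00156), and CRABP1, which binds retinoic acid, 74 and 89 against 205 and 179 (-1.29 ± 0.2, FDR 0.000251). WT was the higher group at each of these start sites. FGF18, a ligand of skeletal growth, had 3 regions higher, among them its start site (0.89 ± 0.23, FDR 0.0218).

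Among 35 WNT genes, 416 regions had 19 higher (4.57%) and 33 lower (7.93%). The feedback inhibitor AXIN2 had 7 of 24 regions lower and 1 higher, with 917 and 1033 reads against 1262 and 1075 at its start site (-0.32 ± 0.09, FDR 0.0437). With library size alone that start site missed the threshold (FDR 0.24), and 4 regions were lower. The ligand WNT3 had 3 regions higher, one of them with 40 and 44 reads against 4 and 12 (2.3 ± 0.49, FDR 0.00474). The secreted inhibitor SFRP1 had 4 regions higher and 1 lower. Mesenchyme and extracellular matrix genes had 5 higher (1.47%) and 26 lower (7.65%) of 340 regions, with 8 of 21 lower at TGFBI, an adhesion protein, 4 at COL12A1 and 3 each at COL3A1 and FN1 (15 lower over the list with library size alone). Cartilage and bone genes had 14 higher (9.93%) and 11 lower (7.8%) of 141, with 5 higher at SOX6, a chondrogenic factor, and 2 of 3 higher at ACAN, the aggrecan gene. COL2A1, the main cartilage collagen, had 2 higher and 3 lower, RUNX3, a skeletal Runt factor, 3 and 3, and HAPLN1, a proteoglycan link protein, 2 lower. With library size alone this list had 15 higher and 6 lower.

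The marker lists of other cell types can be read against the 2.54% higher and 4.56% lower over all regions near a start site. Neuroectoderm markers had 2 of 97 regions higher (2.06%) and 4 lower (4.12%), and pluripotency markers 2 of 66 higher (3.03%) and 1 lower (1.52%). Glial and melanocyte markers had 1 of 71 in each direction (1.41%), and epithelial markers 1 of 32 higher (3.12%) and 0 lower. Mesoderm, endoderm and endothelial markers had 3 of 82 in each direction (3.66%).

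**Figure D4:**
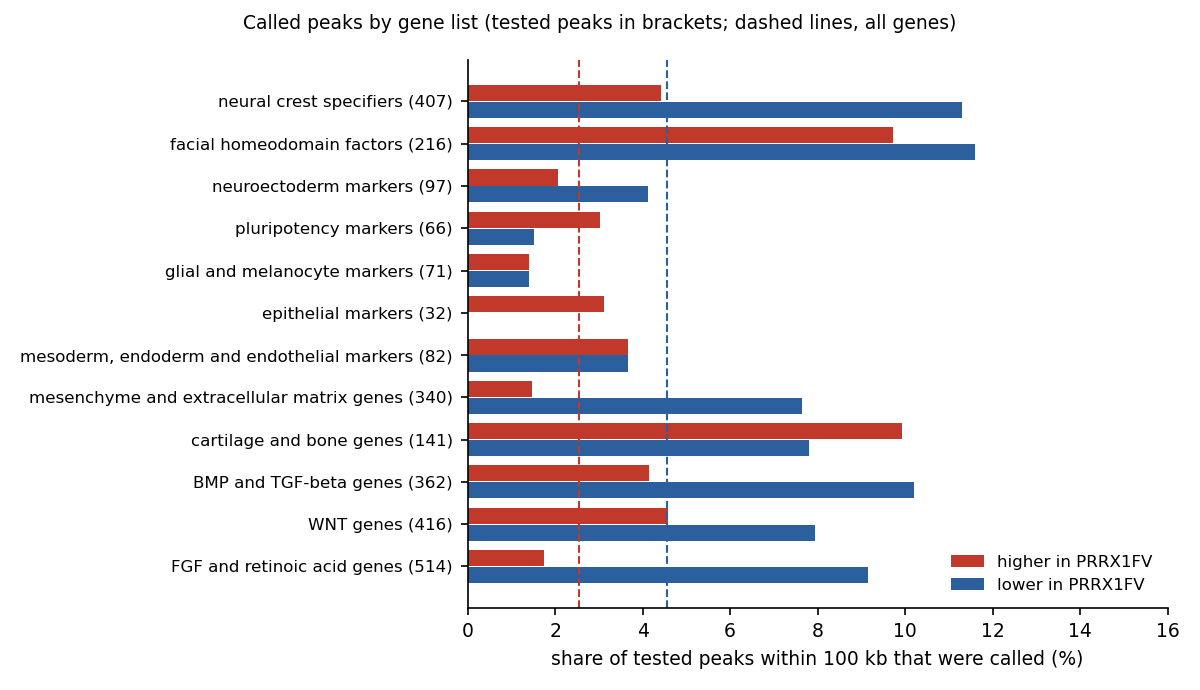
Share of tested regions within 100 kb of each list's genes (%) that were called higher or lower in PRRX1FV, with the number of tested regions in brackets. Dashed lines mark all regions within 100 kb of a protein-coding start, 2.54% higher and 4.56% lower, and lower calls are 11.3% for neural crest specifiers and 9.14% for FGF and retinoic acid genes.

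The tagged gene itself did not pass the test at its promoter. The start-site peak of PRRX1 (chr1:170663040-170663922) had 254 and 233 reads in PRRX1FV against 248 and 255 in WT (-0.11 ± 0.16, FDR 0.759), and the groups overlapped. Of 17 tested PRRX1 regions 3 were higher, against 2.59% of all tested regions. A pair of them lay 43.5 and 42.7 kb upstream, with 72 and 64 reads against 24 and 29 (1.29 ± 0.33, FDR 0.0163) and 34 and 50 against 16 and 16 (1.32 ± 0.39, FDR 0.0424). The latter missed the threshold with DESeq2 and without a filter on low counts, and the former missed it without a filter. The other, in an intron 29.1 kb downstream of the start (chr1:170692808-170693654), had 106 and 94 against 46 and 44 (1.09 ± 0.26, FDR 0.0122). The remaining 14 ranged from -0.12 to 1.4 on the log2 scale. PRRX1 protein was not measured in these libraries.

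Calls were spread over the genome. The median log2 difference ran from -0.07 on chromosome 6 to 0.148 on chromosome 21, and the share called from 5.1% on chromosome 19 to 8.52% on chromosome 6. Of 2833 windows of 1 Mb with a tested region, 2169 held a call. The windows with the most losses were chr14:68000000-68999999 (RAD51B and ZFP36L1, 23 lower of 128), the TBX2 window (22 of 75), the IRX3 window (22 of 80), the ALX4 window (22 of 163) and the IGFBP5 window (20 of 105). The windows with the most gains held DLX1 and DLX2 (11 of 66), SPHK1 on chromosome 17 (11 of 125), EBF2 on chromosome 8 (10 of 50), ZIM2 on chromosome 19 (9 of 39) and AOAH on chromosome 7 (9 of 61). By GC content the median was, over 5 classes, -0.09 in the lowest, 0.13 in the middle and -0.08 in the highest. Regions holding 50 bases identical to the mouse genome were 4.71% of tested, 4.57% of higher and 7.67% of lower regions, and the part of the spike-in in these was not tested.

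The line difference recurred in other libraries. At 3 h, with dTAGV-1 present, 8172 of 110513 regions (7.39%) differed between the same lines, 2688 higher (2.43%) and 5484 lower (4.96%). At 24 h, 9921 of 104402 (9.5%) differed, 3578 higher (3.43%) and 6343 lower (6.08%). Of the regions lower at 0 h, 3573 (67.6%) were lower at 3 h, which is 65.2% of all lower at 3 h, and 3742 (70.8%) at 24 h, which is 59.0% of all lower then. Of those higher at 0 h, 1302 (46.5%) and 1457 (52.0%) were higher again, 48.4% and 40.7% of all higher. At both times 0 regions turned to the opposite call. Across regions the differences correlated at 0.582 (3 h, 95260 regions) and 0.593 (24 h, 92589), a description over points that share clones and cultures. A test of the change in the line difference called 0 of 145034 regions at 3 h and 0 at 24 h with edgeR, with 5466 and 5789 at an unadjusted p below 0.05. No other tool was run on it. The SPRY1 element was lower by 2.7 and 3.09 on the log2 scale at these times (FDR 1.45e-08 and 4.07e-15), and the TBX2 start site gave -3.28 and -3.89 (FDR 1.08e-07 and 4.16e-11).

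PRRX1FV was also compared with other tagged lines. A fit of all 12 libraries at 0 h compared PRRX1FV with the mean of TWIST1FV, ALX1FV, ALX1FV ALX4- and MSX1FNV, all tagged lines from the same stem cell line. In ALX1FV ALX4- the label marks a change at ALX4 besides the tag on ALX1, so this line differs from the others by more than the tagged gene. The fit called 162 of 146669 regions (0.11%), 53 higher (0.0361%) and 109 lower (0.0743%), with 11096 at an unadjusted p below 0.05. This count rested on single libraries: it was 6 without PRRX1FV replicate 1, 16 without PRRX1FV replicate 2, 96 without MSX1FNV replicate 1, 408 without ALX1FV replicate 1 and 503 without ALX1FV replicate 2. DESeq2 called 367. The same fit put PRRX1FV and WT apart at 4875 regions (3.32%), 1443 higher (0.984%) and 3432 lower (2.34%). Of the 162, 11 lay above and 63 below all 10 other libraries, a count over regions already called for a difference. The same count over all tested regions was not made, so nothing particular to PRRX1FV is drawn from it. Fitted on 4 libraries each, PRRX1FV differed from TWIST1FV at 7424 of 110194 regions (6.74%), from ALX1FV ALX4- at 5521 of 116213 (4.75%), from MSX1FNV at 3 of 113505 (0.00264%) and from ALX1FV at 0 of 105118. These are edgeR calls, with no other tool run, and 4886 regions against MSX1FNV and 7100 against ALX1FV had an unadjusted p below 0.05. The common dispersion of the fit was 0.0264 with WT, 0.0316 with ALX1FV ALX4-, 0.033 with MSX1FNV, 0.0347 with TWIST1FV and 0.052 with ALX1FV, and its part in the numbers of calls was not tested. TWIST1FV libraries carry spike-in like those of WT, and the 3 others carry none.

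The regions lower in PRRX1FV had median log2 CPM of 4.45 and 4.16 in TWIST1FV, against 3.03 to 3.92 in the 3 lines without spike-in. The regions higher in PRRX1FV had 2.11 and 2.12 in TWIST1FV and 2.71 to 3.29 in the others. A fit of TWIST1FV against those 3 lines, which shares no library with the main comparison, called 8243 of 129797 regions (6.35%), 5884 higher (4.53%) and 2359 lower (1.82%). Of the 5283 lower regions 2790 (52.8%, 47.4% of all higher calls there) were higher in TWIST1FV and 8 lower. Of the 2800 higher regions 810 (28.9%, 34.3% of all lower calls there) were lower in TWIST1FV and 7 higher. PRRX1FV differed from the mean of the 3 lines without spike-in at 43 of 146669 regions (0.0293%), 26 higher (0.0177%) and 17 lower (0.0116%).

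**Figure D5:**
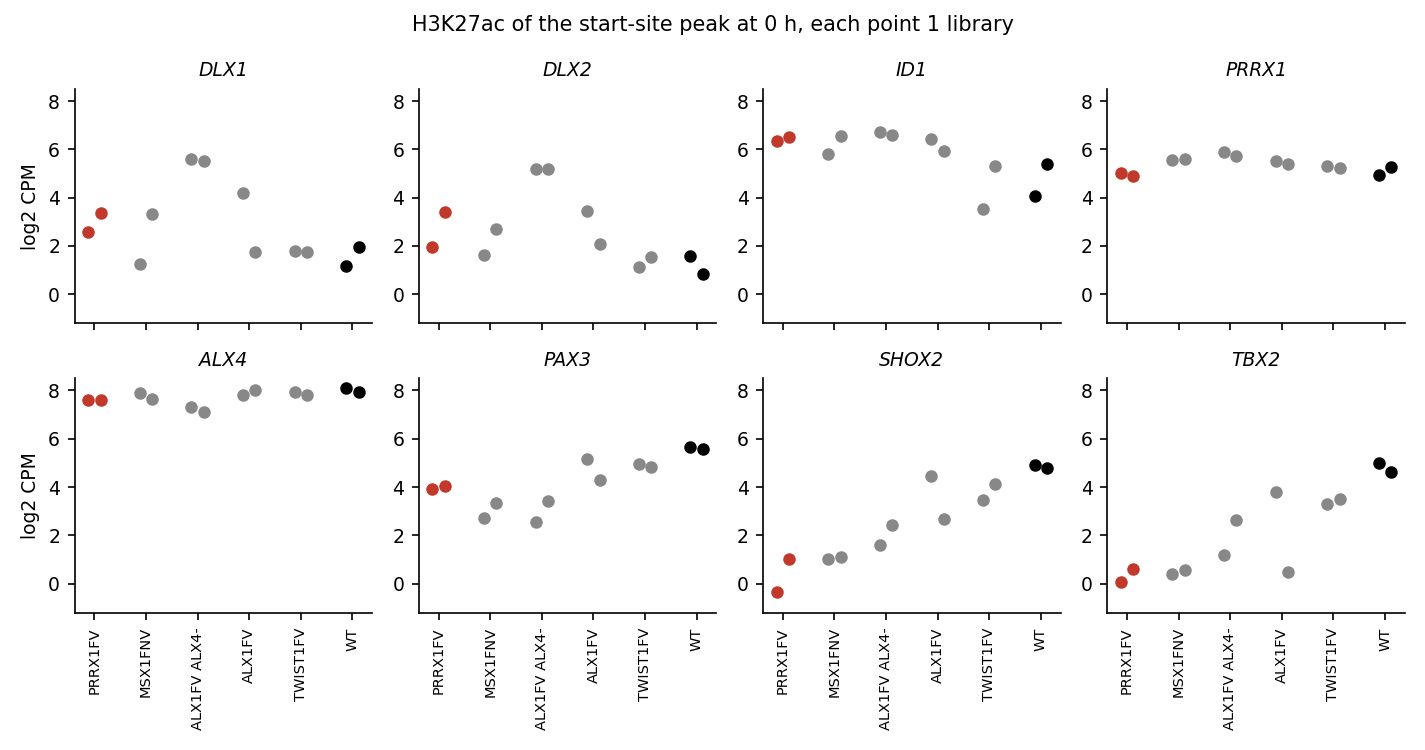
H3K27ac level (log2 CPM) of the strongest start-site peak of 8 genes in each of the 12 libraries at 0 h, 2 points per line. TBX2, SHOX2 and PAX3 are highest in WT, DLX1 and DLX2 are highest in ALX1FV ALX4-, and the PRRX1 start site differs little between PRRX1FV and WT.

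The regions called against the mean of the 4 other tagged lines included the following, all named after their values were seen. Their rank among the libraries therefore adds no support. At a start-site peak of NBEA, within the gene that hosts MAB21L1, PRRX1FV had 12 and 14 reads, below all 10 others, which ran from 22 to 291 (-2.7 ± 0.39, FDR 0.000737). POU3F3, a neural and crest POU factor, had 6 regions lower than that mean, and at 1 of the 6 PRRX1FV lay below all 10 other libraries. Another, 19.0 kb downstream of the start, had 20 and 64 reads, against 124 and 92 in WT and 240 and 246 in TWIST1FV (-1.64 ± 0.27, FDR 0.00351). MSX1FNV had 46 and 54 reads there, between the PRRX1FV libraries. A peak near SERPINA3, a serine protease inhibitor, had 316 and 297 reads, above all others (1.21 ± 0.16), as did the start site of CEBPB, a leucine-zipper factor, with 208 and 200 (1.08 ± 0.2, FDR 0.0127). The start-site peak of LRRIQ4 had 85 and 129 reads, near the 106 and 153 of WT and above the 2 to 83 of the other lines (2.81 ± 0.29, FDR 2.38e-06). An exonic PRRX1 region 0.705 kb from the start had 223 and 222 reads and was lower than in the other tagged lines (-0.86 ± 0.14, FDR 0.00366). Against WT, with 244 and 220 reads, it gave -0.12 ± 0.15 (FDR 0.734).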

How the data were processed

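H3K27ac was measured by ChIP-seq in 2 libraries of PRRX1FV and 2 of WT at 0 h. Reads were aligned to hg38 and mm39 together, and Bowtie2 2.4.1, SAMtools 1.10, MACS2 2.2.7.1 and deepTools 3.5.0 are named, per the submitters' processing notes. The deposited tables hold raw counts per merged accessible region, which the authors made. With regions of low count set aside, at least 76.7% of values in every library were even, so both mates of a pair were probably counted. The deposited TWIST1, AP2a and V5 peak lists hold the authors' −log10 q-value per peak, used only as an alternative threshold, and the authors' fold enrichment, which was not used.

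Regions passing filterByExpr were tested with edgeR 4.0.16 (quasi-likelihood, TMM factors, Benjamini-Hochberg over all tested regions, FDR 0.05) in R 4.3.3. DESeq2 1.42.0, no filter, other scalings, halved counts, a replicate block, other sets of libraries and leaving out each library were alternatives. Library totals over all 36 libraries ran from 5137169 to 9173063. Nothing says that replicates are separate cultures beyond the clone labels, so p-values measure the spread between these libraries. Genes and starts come from GENCODE 44, starts within 500 bp; TWIST1 overlap needed 1 bp (bedtools 2.31.1). Starts in the region names were read as counting from 0, since the most common width is then 501 bases.

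Named regions were the 12 largest called differences per direction above the median level, 1 per gene, with the groups apart, every PRRX1 region, up to 3 called regions per gene list and the 5 fullest windows per direction. The comparison, members and lists were chosen with earlier results of these data known. On simulated counts (97379 regions), 90% of 4-fold rises, 48% of 4-fold falls, 20% of 2-fold rises and 10% of 2-fold falls were recovered. Each kind of change was given to 50 regions and all regions had the same dispersion. These rates therefore do not carry over to the comparison itself.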

Additional observations from a re-analysis of the deposited data

How the results depend on the processing

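The count at 0 h, 8083, was 4966 with DESeq2, 5140 without a filter, 4630 in a fit of all 36 libraries and 4875 in a fit of the 12 libraries at 0 h. It was 7360 with the replicate block. Same-numbered libraries deviated with a correlation of -0.013, so the numbers were not taken as pairs. Leaving out 1 library gave 0 to 8235 calls. The lowest value came without WT replicate 1, where the estimated prior degrees of freedom fell from 19 to 4.6. In the other leave-outs at 0 h they were estimated as infinite. The edgeR counts of these fits are therefore not on a like footing. With DESeq2 the same leave-outs gave 994 (WT replicate 1), 1836, 2134 and 2446.

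At 3 h, 8172 calls became 4975 with DESeq2, 829 without a filter, 9818 with the replicate block and 4006 over 36 libraries. Leaving out 1 library gave 0 to 6974, with 0 without either WT library, and with DESeq2 1278 and 1512 (PRRX1FV), 1792 and 2033 (WT). At 24 h, 9921 became 5066 with DESeq2, 4910 over 36 libraries and 10437 with the block, and leave-outs gave 6274 to 8179. Against the 4 other tagged lines, 162 became 367 with DESeq2, 247 with halved counts and 154 with the block, and leave-outs gave 6 (without PRRX1FV replicate 1) to 503 (without ALX1FV replicate 2). Halved counts gave 11144 at 0 h and 11572 at 3 h. The cause of these shifts was not tested. In all alternatives, 0 of the called regions changed sign. Over 74 named regions, 1004 alternative values left 859 on the same side of the threshold, 7 gained a call, 0 reversed and the others lost a call. Of the 60 called named regions, the fit without a filter kept 45, all 36 libraries 54 and edgeR without WT replicate 1 kept 0. DESeq2 gave no adjusted p for 17 of them, kept 40 and lost 3, those of ERG, POU3F3 and the PRRX1 region 42.7 kb upstream. The TWIST1-bound share of lower regions was 76.8% with an overlap of at least 50% of the region and 74.7% with TWIST1 peaks of a −log10 q of at least 10, and of higher regions 25.6% and 22.3%. In simulated counts with the depth and replicate number of these libraries, 20% of 2-fold rises and 10% of 2-fold falls were recovered. The values were 90% for 4-fold rises and 48% for 4-fold falls. Each kind of change was given to 50 of 97379 regions, and all regions had the same dispersion. The share changed was far below the 7.47% called in the data, so these rates do not give the power of this comparison. The separate part of depth was not tested.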
